A study of Mus musculus with 48 samples.

Results

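Ribosomal protein genes and genes of translation initiation were described in 2 comparisons of mouse cerebellum messenger RNA. The members were the protein-coding genes whose symbol starts with Rpl, Rps or Eif and a digit (or is Rpsa or Rplp0 to Rplp2), without the Rps6k kinases and names containing -ps. This gave 48 genes of the 6094 listed in either comparison: 46 in the comparison of Chd4 conditional knockout (cKO) with wild type (WT), 2 in that of rotarod training with rest, and none in both. In the cKO comparison they were 15 large subunit genes, 14 small subunit genes and 17 initiation genes. Neither Sync-TRAP table, a comparison of RNA pulled down with tagged ribosomes, listed a member. These set pull-down with Cre against control pull-down (0 of 38 genes) and control pull-down against input (0 of 51 genes). The Sync-TRAP samples were taken at postnatal day 12, after electroporation, and differ in age from the samples described here.

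The groups were 4 libraries of Chd4 cKO cerebellum against 4 of WT, and 4 libraries from mice after training on the rotarod, a turning rod that tests balance, against 4 from mice at rest. All were taken at postnatal days 27 to 28. Chd4 is the ATPase of the NuRD chromatin remodeling complex. The labels name neither the Cre driver, the deleted exons, the strain nor the sex, and do not state whether animals were pooled.

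A ribosome has a large and a small subunit, each a scaffold of ribosomal RNA with many small proteins. Initiation factors load the small subunit with the initiator tRNA, bring it to the capped end of a messenger RNA and set it on the start codon, after which the large subunit joins. Most ribosomal protein messengers begin with a run of pyrimidines, the terminal oligopyrimidine or TOP tract, through which mTOR signalling controls their translation.

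Runs of pyrimidines were looked for around the annotated starts. Windows of 60 bases are printed for 6 ribosomal protein genes and 1 initiation gene with a run of at least 8 bases that are all C or T, and for 2 genes without one. They come from RefSeq (build GRCm38.p6), read on the strand of the gene, from 40 bases before the annotated start to 20 bases after it. Capitals mark the longest run where it reached 8 bases. The run spans the annotated start in Rpl27a, Rpl15, Rpl14, Rpl7a and Eif3f, and ends before it in Rps15a and Rpl4. The 9 genes were picked as examples after their values were seen.
Rpl27a (chr7:109519155-109519214, plus strand): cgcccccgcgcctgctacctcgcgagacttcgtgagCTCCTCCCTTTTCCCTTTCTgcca
Rpl15 (chr14:18270967-18271026, minus strand): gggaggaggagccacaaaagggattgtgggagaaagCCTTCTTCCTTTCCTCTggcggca
Rps15a (chr7:118116128-118116187, minus strand): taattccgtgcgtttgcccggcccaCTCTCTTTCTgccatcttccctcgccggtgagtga
Rpl14 (chr9:120571477-120571536, plus strand): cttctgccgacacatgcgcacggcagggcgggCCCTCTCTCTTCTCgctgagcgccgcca
Rpl7a (chr2:26910767-26910826, plus strand): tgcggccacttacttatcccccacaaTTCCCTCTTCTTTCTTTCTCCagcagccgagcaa
Rpl4 (chr9:64173347-64173406, plus strand): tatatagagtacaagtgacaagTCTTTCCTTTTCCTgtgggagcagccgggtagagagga
Eif3f (chr7:108934375-108934434, plus strand): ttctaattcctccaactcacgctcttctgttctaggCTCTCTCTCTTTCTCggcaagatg
Eif2ak2 (chr17:78882553-78882612, minus strand): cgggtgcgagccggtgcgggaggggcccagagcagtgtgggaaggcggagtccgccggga
Mrpl23 (chr7:142532992-142533051, plus strand): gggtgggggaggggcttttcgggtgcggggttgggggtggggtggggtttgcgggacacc

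Of the ribosomal protein genes listed in the cKO comparison, 12 of the 19 with a start region in RefSeq had such a run in this window (63.2%). Among ribosomal protein genes not listed there it was 25 of 48 (52.1%), among listed initiation genes 6 of 15 (40%), and among all protein-coding genes 4717 of 17492 (27.0%). None of the 8 listed mitochondrial ribosomal protein genes with a start region had one, but 18 of 69 such genes in RefSeq did (26.1%). The letters CCGGAAG, a core that ETS-family factors bind, stood on either strand within 250 bases before to 50 bases after the start in 8 of the 19 listed ribosomal protein genes (42.1%), in 18 of the 48 not listed (37.5%) and in 12.9% of all protein-coding genes. Related sets had them about as often: 5 of 15 listed initiation genes (33.3%) and 3 of 8 listed mitochondrial ribosomal protein genes (37.5%). Of all mitochondrial ribosomal protein genes in RefSeq with a start region, 26 of 69 had them (37.7%). Matched letters are a description and show no binding.

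Depth, read from the spacing of low values, was 13.7 to 15.6 M reads in the cKO and WT libraries and 13.7 to 16.7 M in the rotarod and rest libraries. The targeted gene, Chd4, was at 7.90 to 8.06 log2 CPM in the cKO libraries, against 8.31 to 8.45 in the WT libraries. Each table lists features that passed the authors' own test at an adjusted p below 0.05, and features that missed it have no value here; "rose" and "fell" refer to that test. A level is the deposited log2 CPM, the log2 of reads scaled to library size. Each difference, on the same scale and ± SE, was estimated with limma, and its adjusted p covers all features tested. No source states that libraries came from separate litters or days, so p-values measure the spread between these samples. In whole cerebellum, fewer cells of a type and less RNA per cell cannot be told apart.

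Loss of Chd4 was set against WT. In the authors' deposited table, of the 46 members 43 rose and 3 fell. All 29 ribosomal protein genes rose, by 0.21 to 0.65 with a median of 0.34, and of the 17 initiation genes 14 rose and 3 fell. Across all features tested 20.3% were called, 11.0% higher and 9.29% lower in cKO, and of RefSeq's protein-coding genes 21.7% were listed. RefSeq has 145 protein-coding genes with a name that fits the rule, of which 45 were listed (31.0%): 28 of 89 named Rpl or Rps and 17 of 56 named Eif. The remaining listed member, Rps4l, is protein-coding in the files and a transcribed pseudogene in RefSeq. All listed features together had a median difference of 0.21, and 54.3% of them were higher in cKO.

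Limma passed 20 members as higher and 2 as lower (8.17% and 5.04% of all features tested), 22 of 46 where 65.0% of all listed features passed. The count was 9, 10 or 12 without cKO library 2, 3 or 4, and 10 or 8 without WT library 3 or 4. Among the ribosomal protein genes it passed 14 of 29, and 15 did not pass. The libraries of cKO and WT did not overlap in 17 of the 29 ribosomal protein genes (58.6%) and in 13 of the 17 initiation genes, where 78.0% of all listed features did not overlap; 44.8% of all listed features did so with cKO higher.

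**Figure D1:**
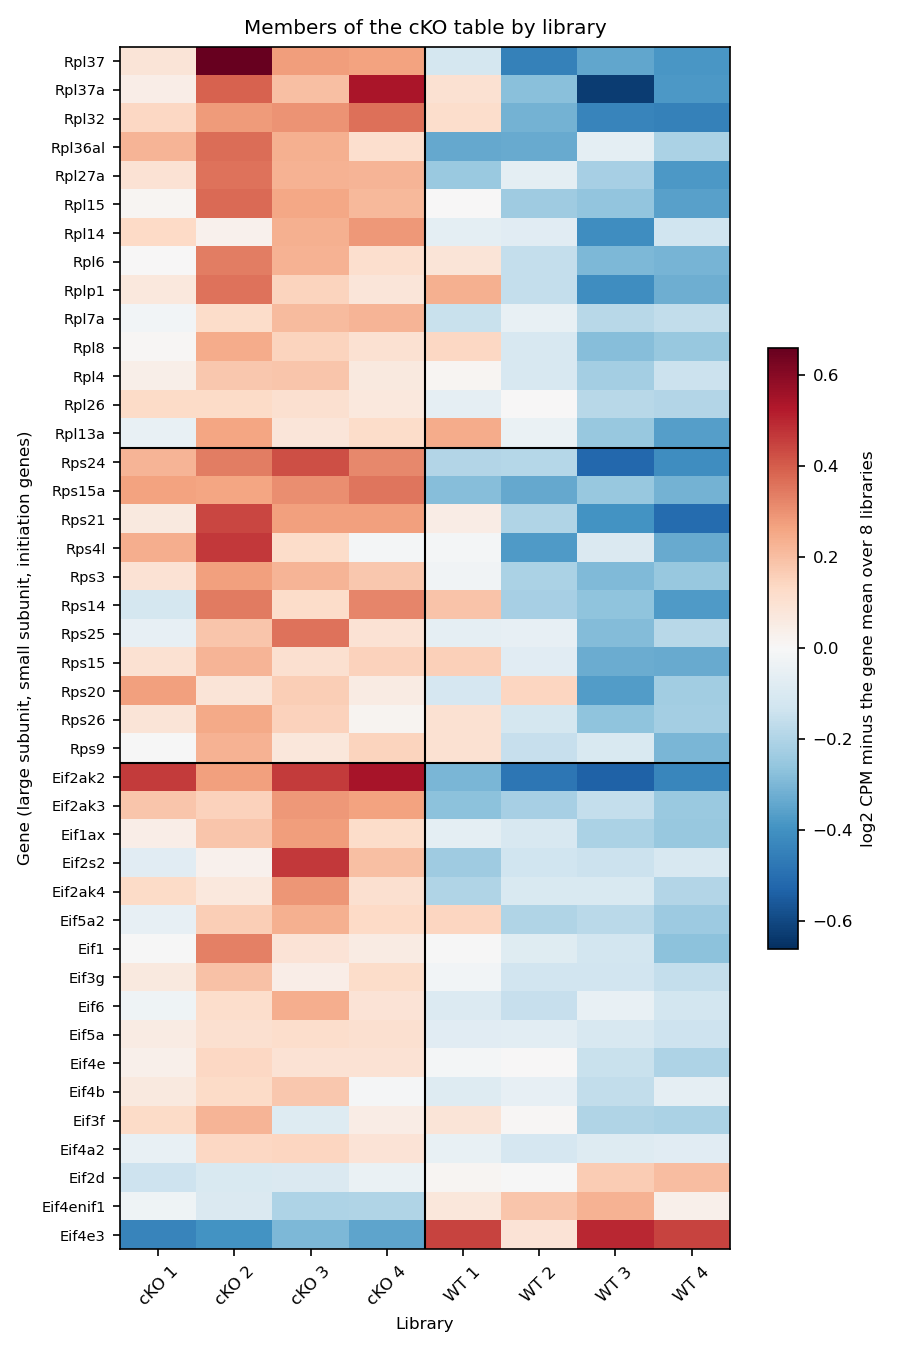
Level of 42 members (rows) in each library (columns, cKO left of WT), as log2 CPM minus the mean of the gene over the 8 libraries; lines divide the genotypes and the large subunit, small subunit and initiation genes. The ribosomal protein rows are mostly red in cKO and blue in WT, WT 1 is paler or red in many of them, and Eif2d, Eif4enif1 and Eif4e3 run the other way.

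WT library 1 stood apart in the ribosomal protein genes. It was the highest WT library in 20 of the 29, with a median deviation of 0.19 from the WT mean, while cKO library 1 was the lowest cKO library in 21 of the 29. WT library 1 was picked for leaving out after it was seen to stand high, so a wider gap follows from the choice and is no check. With WT library 1 left out, the median difference was 0.44 and 26 of the 29 did not overlap (89.7%, where all listed features gave 83.3%). Limma then passed 18 of the 29, and 1965 higher and 1085 lower of all 5508 listed features. Of all members it passed 25 as higher without WT library 1 and 20 without cKO library 1. By library number, the median difference was 0.22 within libraries 1 and 2 and 0.47 within libraries 3 and 4, positive in all 29 genes within each. The genes were chosen as called over these same libraries, so the shared sign is no separate check. Of all 5508 listed features 2990 were higher over all libraries. Within libraries 1 and 2 it was 2986, and within libraries 3 and 4 it was 2987. Limma passed none of the 29 within libraries 1 and 2 alone, where it passed only 454 higher and 95 lower of all 5508 listed features. The labels tie the numbers to no batch. Over all listed features, though, deviations from the group mean correlated between genotypes at 0.0305 to 0.184 among libraries 1 and 2 and among libraries 3 and 4. From libraries 1 and 2 to libraries 3 and 4 it was -0.163 to 0.0312. What the libraries share by number was not tested.

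Summed over the 29 ribosomal protein genes, cKO libraries 1 to 4 held 1344, 1522, 1449 and 1425 CPM, against 1306, 1145, 1038 and 1046 CPM in WT libraries 1 to 4. The genotypes did not overlap, but WT library 1 came close to cKO library 1. The 17 initiation genes summed to 1459 ± 57.2 CPM in cKO and 1284 ± 30.1 CPM in WT (SD, n = 4 each). These sums run over genes chosen as called and are given as a description.

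**Figure D2:**
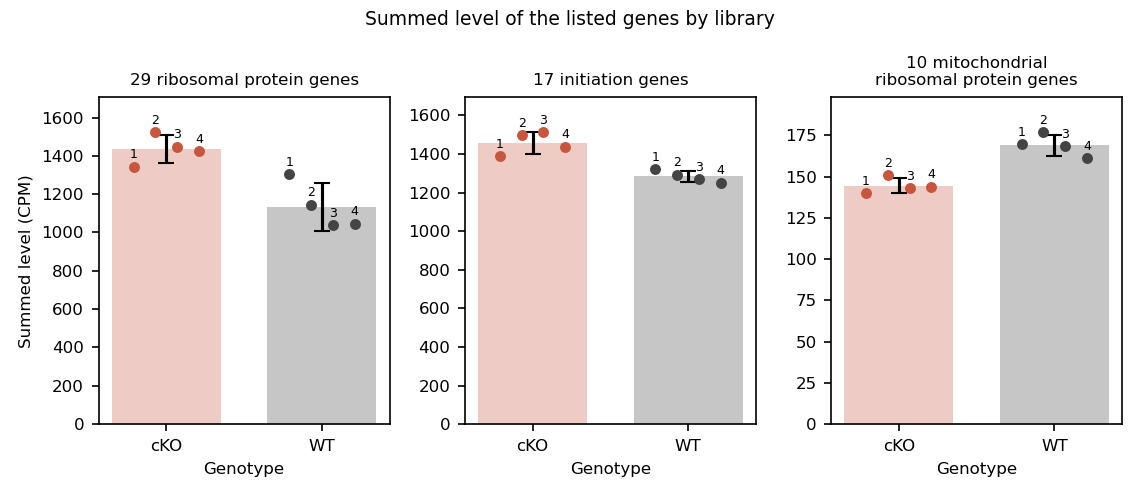
Summed level in CPM of the listed ribosomal protein, initiation and mitochondrial ribosomal protein genes, cKO left of WT; bars are means, error bars SD and points the 4 libraries, labelled by number. The ribosomal protein sums lie at 1344 to 1522 CPM in cKO and 1038 to 1306 CPM in WT, and the mitochondrial sums run the other way, at 140 to 151 CPM in cKO and 161 to 177 CPM in WT.

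Small subunit genes gave the clearest single case. Rps15a was at 6.75, 6.74, 6.79 and 6.84 log2 CPM in cKO libraries 1 to 4, against 6.20, 6.14, 6.23 and 6.17 in WT libraries 1 to 4. The libraries within a genotype lay close together and the genotypes far apart: the difference was 0.59 ± 0.05, 1.51-fold (limma adjusted p = 0.000123).

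Rps24, one of the genes mutated in human Diamond-Blackfan anemia, was at 4.76, 4.87, 4.96 and 4.85 log2 CPM in cKO, against 4.34, 4.35, 4.02 and 4.12 in WT. The genotypes did not overlap and the difference was 0.65 ± 0.09, the highest among the ribosomal proteins (limma adjusted p = 0.0018). WT libraries 3 and 4 were lower than WT libraries 1 and 2.

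Rps21, which encodes one of the smallest proteins of the small subunit, was at 5.02, 5.40, 5.22 and 5.22 log2 CPM in cKO, against 5.0, 4.76, 4.56 and 4.45 in WT. Its difference was 0.52 ± 0.13 (limma adjusted p = 0.0332), and WT library 1 nearly reached cKO library 1. Rps3, at the entry of the messenger channel, was at 6.99 to 7.16 log2 CPM in cKO and 6.60 to 6.87 in WT. It rose by 0.38 ± 0.07 and passed limma (adjusted p = 0.00954).

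Rps4l, Rps14, Rps25, Rps15, Rps20, Rps26 and Rps9 had differences of 0.23 to 0.41 and did not pass (limma adjusted p of 0.0674 to 0.259). Rps4l, a relative of Rps4x, was at 3.74, 3.96, 3.62 and 3.48 log2 CPM in cKO, against 3.48, 3.12, 3.40 and 3.16 in WT. These ranges touched without crossing, and the difference was 0.41 ± 0.12 (limma adjusted p = 0.0674). Rps14 was at 5.90 in WT library 1 and 5.34 to 5.49 in the other 3 WT libraries, against 5.59 to 6.05 in cKO.

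Large subunit genes rose over a like range. Rpl37, a small zinc-binding protein of the large subunit, was at 2.96, 3.54, 3.15 and 3.15 log2 CPM in cKO, against 2.76, 2.43, 2.53 and 2.49 in WT. The genotypes did not overlap, at 532 reads over the 4 cKO libraries and 342 over the 4 WT libraries, with a difference of 0.64 ± 0.13 (limma adjusted p = 0.0123). Its near copy Rpl37rt, a processed pseudogene in the files and so no member, was 0.82 ± 0.18 higher in cKO, and how reads were divided between the copies is uncertain.

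Rpl37a was at 2.86, 3.21, 3.02 and 3.36 log2 CPM in cKO, against 2.92, 2.54, 2.19 and 2.44 in WT. WT library 1 lay above cKO library 1, and the difference of 0.59 ± 0.16 did not pass limma (adjusted p = 0.0529). Without WT library 1 it was 0.72 and passed (limma adjusted p = 0.0161).

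Rpl32 was at 5.17, 5.32, 5.33 and 5.40 log2 CPM in cKO, against 5.15, 4.72, 4.60 and 4.59 in WT, a difference of 0.54 ± 0.13 (limma adjusted p = 0.0269). Again WT library 1 stood just below cKO library 1 and well above the other WT libraries. Rpl36al, a paralog of Rpl36a, was at 2.76, 2.91, 2.77 and 2.65 log2 CPM in cKO, against 2.20, 2.20, 2.47 and 2.33 in WT. Here WT libraries 1 and 2 were the lowest of their group, and the difference was 0.47 ± 0.08 (limma adjusted p = 0.00651).

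Rpl27a and Rpl15, shown above with long pyrimidine runs, rose by 0.45 ± 0.08 and 0.43 ± 0.10 and passed limma, as did Rpl7a and Rpl26 with 0.27 and 0.22. The genes Rpl14, Rpl6, Rplp1, Rpl8, Rpl4, Rpl13a and Rpl37a, did not pass (limma adjusted p of 0.0529 to 0.777). Rpl13a, which has a role in silencing inflammatory messengers in human cells, had the smallest difference of the ribosomal proteins, 0.21 ± 0.13: it was at 6.63 in WT library 1 and 6.03 to 6.34 in the other 3 WT libraries, against 6.34 to 6.65 in cKO. Rplp1, a protein of the stalk that recruits elongation factors, was at 6.21 in WT library 1 and 5.56 to 5.81 in the other WT libraries, against 6.04 to 6.33 in cKO. Without WT library 1 its difference was 0.46, against 0.33 with all libraries.

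Many ribosomal protein genes have processed copies elsewhere in the genome, and the sources used here do not say how reads that match several copies were counted. Levels of single genes are therefore uncertain.

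**Figure D3:**
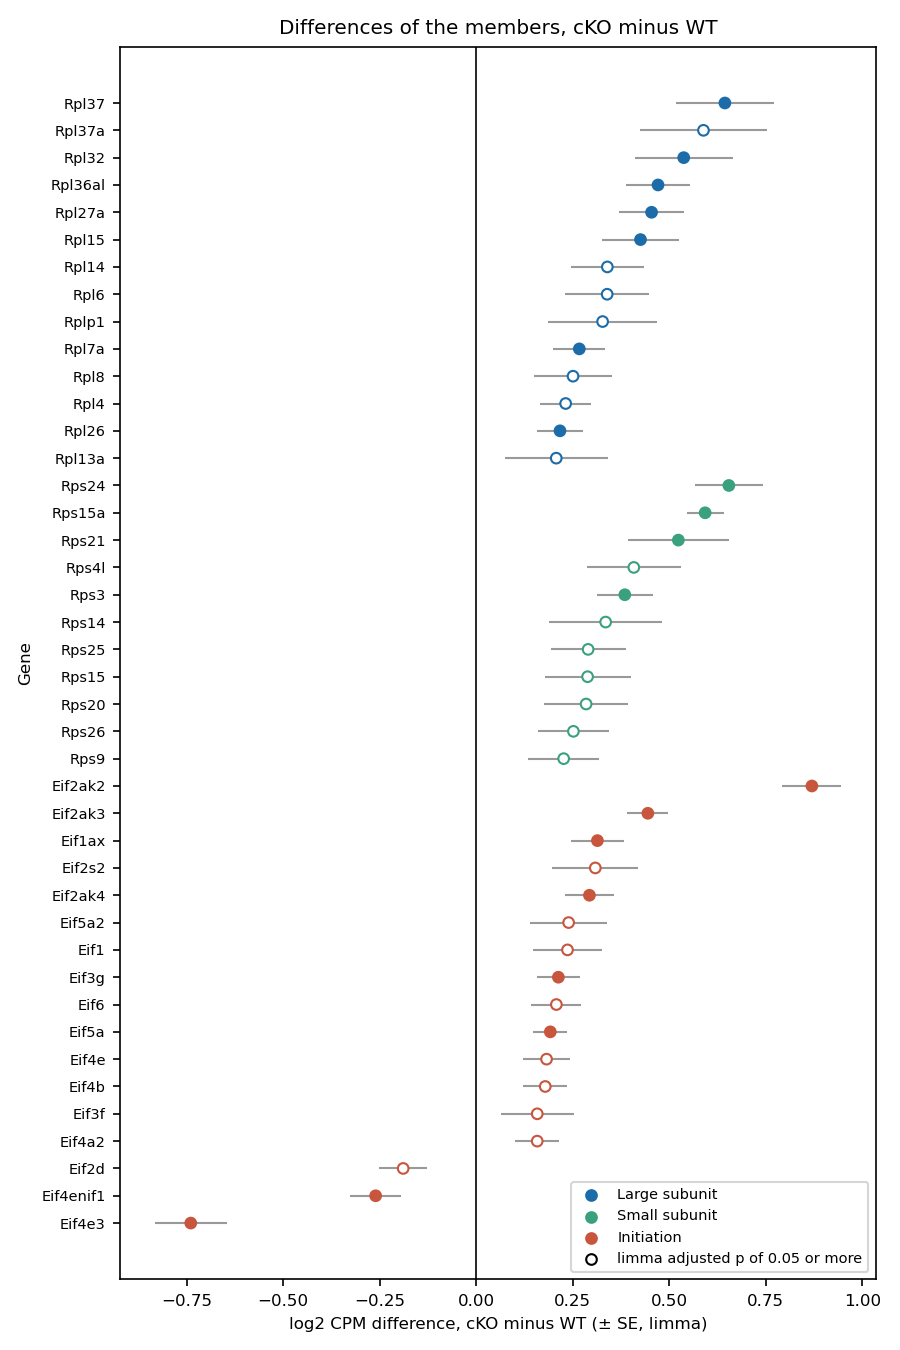
Difference of 42 members in log2 CPM, cKO minus WT, from limma; points are estimates, error bars SE, and colours the large subunit, small subunit and initiation genes. Filled points passed limma (17 higher and 2 lower), open points did not, and all 25 ribosomal proteins drawn lie to the right of 0.

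Of the initiation genes, those of the eIF2α kinases are given first. These kinases phosphorylate eIF2α, which lowers general initiation while favouring a few messengers such as that of Atf4. Of the 4 kinase genes in RefSeq 3 were listed, where 21.7% of RefSeq's protein-coding genes were. All 3 rose, passed limma and did not overlap. Of all listed features 65.0% passed limma and 78.0% did not overlap. Eif2ak2, which encodes the kinase PKR that responds to double-stranded RNA, was at 3.84, 3.65, 3.84 and 3.92 log2 CPM in cKO, against 3.08, 2.91, 2.85 and 2.95 in WT. This was the largest rise of any member, 0.87 ± 0.08 or 1.83-fold (limma adjusted p = 0.000203), with 810 reads in cKO and 449 in WT.

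Eif2ak3, the endoplasmic reticulum kinase PERK, was at 6.01, 5.98, 6.11 and 6.09 log2 CPM in cKO, against 5.56, 5.61, 5.67 and 5.58 in WT. Its difference was 0.44 ± 0.05 (limma adjusted p = 0.000964). Eif2ak4, the amino acid sensor GCN2, was at 5.62 to 5.84 in cKO and 5.36 to 5.46 in WT, a difference of 0.29 ± 0.06 (limma adjusted p = 0.0175). Leaving out any 1 library left Eif2ak2 and Eif2ak3 past limma, and Eif2ak4 in 7 of 8 such fits.

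The 3 members that fell were Eif4e3, Eif4enif1 and Eif2d. Eif4e3, which encodes a relative of the cap-binding protein eIF4E, was at 3.14, 3.18, 3.28 and 3.23 log2 CPM in cKO, against 4.02, 3.67, 4.07 and 4.02 in WT. The genotypes did not overlap, with a log2 difference of -0.74 ± 0.09, or 0.599 of the level in WT (limma adjusted p = 0.00133). WT library 2 was below the other WT libraries.

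Eif4enif1 encodes 4E-T, which binds eIF4E and carries it to the nucleus and to processing bodies. It was at 5.97, 5.90, 5.79 and 5.80 log2 CPM in cKO, against 6.07, 6.18, 6.22 and 6.03 in WT, without overlap, and fell by 0.26 ± 0.07 (limma adjusted p = 0.0377). Eif2d, a factor that delivers tRNA outside the main pathway, was at 5.15, 5.18, 5.18 and 5.24 log2 CPM in cKO, against 5.29, 5.28, 5.45 and 5.49 in WT. The difference was -0.19 ± 0.06 and missed the limma threshold (adjusted p = 0.0996).

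Eif4e itself, the cap-binding protein, was at 5.23, 5.33, 5.29 and 5.29 log2 CPM in cKO, against 5.18, 5.20, 5.05 and 4.99 in WT, and differed by 0.18 ± 0.06 (limma adjusted p = 0.108). Its genotypes did not overlap, but WT library 2 came close to cKO library 1. The helicase gene Eif4a2 was at 8.08, 8.26, 8.27 and 8.22 log2 CPM in cKO, against 8.08, 8.02, 8.04 and 8.05 in WT. cKO library 1 lay level with WT library 1, and the difference was 0.16 ± 0.06 (limma adjusted p = 0.13). Eif4b, which stimulates the helicase, was at 7.71, 7.77, 7.82 and 7.64 log2 CPM in cKO, against 7.56, 7.59, 7.48 and 7.59 in WT, without overlap and with a difference of 0.18 ± 0.06 (limma adjusted p = 0.084).

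Eif1ax, a factor of scanning and start codon choice, rose by 0.31 ± 0.07 and passed limma (adjusted p = 0.0203), at 7.38 to 7.61 log2 CPM in cKO and 7.08 to 7.27 in WT. Its partner Eif1 and the eIF2 β subunit gene Eif2s2 differed by 0.24 ± 0.09 and 0.31 ± 0.11 and did not pass (adjusted p = 0.158 and 0.136). Of the eIF3 scaffold, Eif3g rose by 0.21 ± 0.06 and passed limma (adjusted p = 0.0419). Eif3f was at 6.45, 6.55, 6.24 and 6.37 log2 CPM in cKO, against 6.41, 6.33, 6.13 and 6.11 in WT. Its libraries overlapped, and the difference of 0.16 ± 0.09 did not pass (limma adjusted p = 0.647).

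Eif5a, which helps peptide bonds form at difficult sequences during elongation, was at 7.11, 7.16, 7.18 and 7.16 log2 CPM in cKO, against 6.98, 6.99, 6.95 and 6.92 in WT. Both genotypes spread little, and the rise of 0.19 ± 0.04 passed limma (adjusted p = 0.0232). Its paralog Eif5a2 differed by 0.24 ± 0.10 (adjusted p = 0.229), with WT library 1 at 5.79 and the other WT libraries at 5.41 to 5.47. Eif6, which keeps free large subunits from joining too early, differed by 0.21 ± 0.06 (limma adjusted p = 0.0788).

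Other genes of translation were counted in lists, where 21.7% of RefSeq's protein-coding genes were listed. Of 10 genes induced by the integrated stress response, the pathway that eIF2α kinases start, 7 rose and none fell, with a median difference of 0.93, and 6 passed limma. Chac1, a glutathione-degrading enzyme, rose by 1.56 ± 0.14, at means of 3.73 log2 CPM in cKO and 2.17 in WT. Trib3, Nupr1 and Sesn2 rose by 1.40 ± 0.20, 1.34 ± 0.13 and 0.93 ± 0.12 (limma adjusted p of the 4 genes at most 0.00243). Of 22 aminoacyl-tRNA synthetase genes and their scaffolds, 11 rose and none fell, with a median of 0.30, and 5 passed limma. Cars rose by 0.78 ± 0.19, Sars by 0.47 ± 0.08 and Nars by 0.36 ± 0.09, all past limma, and Tars differed by 0.34 ± 0.11 (limma adjusted p = 0.0838).

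Mitochondrial ribosomal proteins, named for the separate ribosome of that organelle, ran the other way. The genes were taken by name alone (Mrpl or Mrps and a digit). Whether each of them, Mrps36 included, is part of that ribosome was not checked. Of 78 such genes 10 were listed (12.8%), 9 lower and 1 higher in cKO, with a median of -0.32, and limma passed 5 of the 9. Mrps36, Mrps17 and Mrpl34 fell by 0.42 ± 0.07, 0.37 ± 0.06 and 0.36 ± 0.08. Mrpl23 differed by -0.63 ± 0.23 (limma adjusted p = 0.146) at low counts, and the 1 higher gene, Mrpl20, named after its value was seen, differed by 0.19 ± 0.07 (limma adjusted p = 0.144). The sum of the 10 genes was 144 ± 4.57 CPM in cKO and 169 ± 6.45 CPM in WT (SD, n = 4 each). The difference between the cytosolic and the mitochondrial genes was not tested.

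Of 43 ribosome biogenesis genes 8 rose and 6 fell. Listed were 32.6% of these, and 26.7% of the mTOR and ribosomal S6 kinase genes that follow. For elongation factors and other regulators of initiation it was 33.3% and 18.8%, where 21.7% of RefSeq's protein-coding genes were listed. Polr1e, a subunit of the polymerase that copies ribosomal RNA genes, and Taf1b, of the factor that loads it, rose by 0.64 ± 0.11 and 0.51 ± 0.10, and the nucleolar gene Nop56 rose by 0.44 ± 0.05. Ubtf, a factor that opens ribosomal RNA genes, fell by 0.39 ± 0.05 (limma adjusted p = 0.000983). Of 30 mTOR and ribosomal S6 kinase genes 4 rose and 4 fell, with Rps6ka6 and Rps6kl1 up by 0.81 ± 0.10 and 0.42 ± 0.08 and Rps6ka1 down by 0.51 ± 0.08. Lamtor5 differed by 0.28 ± 0.10 and did not pass limma (adjusted p = 0.132). Of 9 elongation factor genes Eef1b2 and Eef1a1 were higher by 0.29 and 0.20 and the kinase gene Eef2k lower, at -0.37, none past limma. Of 16 other regulators of initiation 3 rose: Mknk2 and Mknk1, kinases of eIF4E, by 0.56 ± 0.07 and 0.39 ± 0.10, and Pabpc1, at 0.15, did not pass limma. Etf1 (0.19), the 1 listed of 4 release factor genes, and Gnb2l1 (0.23), the 1 listed of the ribosome-associated genes, did not pass limma either.

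**Figure D4:**
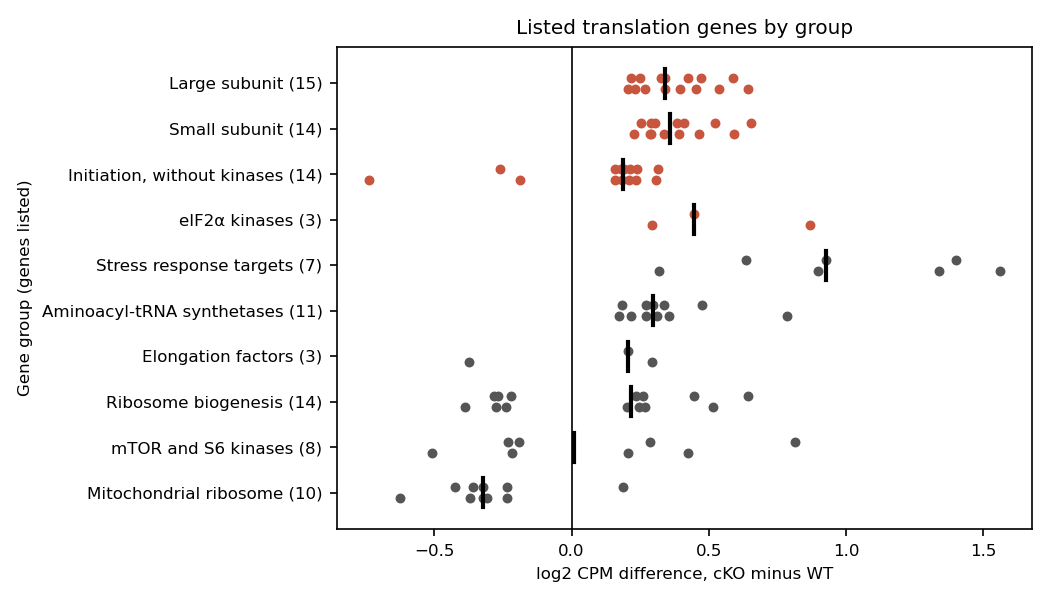
Difference in log2 CPM, cKO minus WT, of each listed gene (points) by gene group, with the number of listed genes in brackets and the group's median as a black line; members are red and other translation genes grey. The cytosolic ribosomal proteins lie between 0.21 and 0.65, the stress response targets reach 1.56, and 9 of the 10 mitochondrial ribosomal proteins lie below 0.

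Markers of other cells moved in the same libraries. Purkinje cell markers were listed for 9 of 10 genes, all lower, summing to 7207 to 7767 CPM in cKO and 8473 to 8999 CPM in WT. Oligodendrocyte markers were lower for 7 of 10 (5012 to 5299 CPM in cKO, 5122 to 6847 CPM in WT) and astrocyte and Bergmann glia markers for 4 of 10 (3085 to 3358 CPM in cKO, 3601 to 3774 CPM in WT). Of 10 microglia and vascular markers 4 were lower and 1 higher (94.8 to 105 CPM in cKO, 110 to 137 CPM in WT), and of 10 granule neuron markers 4 were lower and 2 higher (2983 to 3071 CPM in cKO, 3535 to 3814 CPM in WT). Limma passed 4 of the 9 Purkinje, 2 of the 7 oligodendrocyte and 2 of the 4 astrocyte and Bergmann glia markers. It passed 4 microglia and vascular markers as lower, and 3 granule neuron markers as lower and 2 as higher. Of all listed features 65.0% passed. Genotypes did not overlap in 8 of the 9 Purkinje, 2 of the 7 oligodendrocyte and 3 of the 4 astrocyte and Bergmann glia markers. The same held for 4 of the 5 microglia and vascular and all 6 granule neuron markers, where 78.0% of all listed features did not overlap. Of RefSeq's protein-coding genes 21.7% were listed, and 9.29% of all features tested were called lower. The marker sums run over the listed genes only, which were chosen as called, and are given as a description. Markers that were not listed have no value here. No listed marker was at 0 in any library. Their part in the changes of the translation genes was not tested.

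Libraries taken after rotarod training were set against those taken at rest. Of the 145 genes only Rpl10 and Eif4ebp2 were listed, both higher in the authors' deposited table, where 3.38% of all features tested were called, 2.06% higher and 1.31% lower, and 3.51% of RefSeq's protein-coding genes were listed. Rpl10, a protein that joins the large subunit late in its assembly, was at 2.70, 2.50, 2.37 and 2.62 log2 CPM in the rotarod libraries, against 1.67, 2.03, 2.0 and 1.80 in the rest libraries. The groups did not overlap, at 371 and 208 reads, and the rise of 0.67 ± 0.11, 1.60-fold, passed limma (adjusted p = 0.0389), which passed 0.420% of all features tested as higher, 0.201% as lower and 18.4% of those listed. Of all listed features 84.9% did not overlap, and 51.1% of all listed features did so with rotarod higher. With any 1 of the 8 libraries left out it no longer passed, at differences of 0.61 to 0.73.

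Eif4ebp2, the main brain form of the proteins that hold eIF4E away from initiation, was at 5.60, 5.70, 5.83 and 5.73 log2 CPM in the rotarod libraries, against 5.57, 5.36, 5.30 and 5.42 in the rest libraries. The lowest rotarod library lay just above the highest rest library, and the difference of 0.30 ± 0.08 did not pass limma (adjusted p = 0.242). The libraries of this table carry no sample number and are given in column order.

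**Figure D5:**
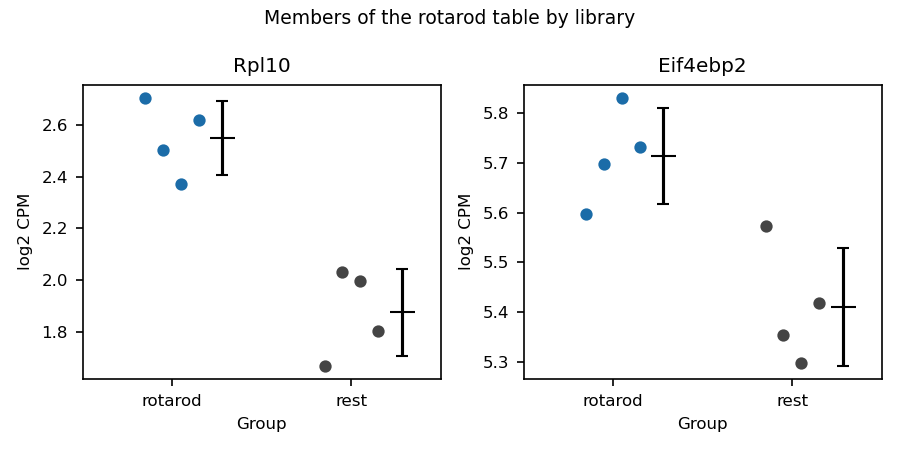
Level in log2 CPM of Rpl10 and Eif4ebp2 in the rotarod libraries (left) and the rest libraries (right); points are libraries, and the bars beside them mean ± SD (n = 4 each). Rpl10 lies at 2.37 to 2.70 after training and 1.67 to 2.03 at rest, Eif4ebp2 at 5.60 to 5.83 and 5.30 to 5.57.

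Few other translation genes were listed after training. The mTOR inhibitor gene Ddit4 rose by 0.92 ± 0.13 and passed limma (adjusted p = 0.0258). The eIF4E kinase gene Mknk2, Eef1d, Rrp1b, Wdr12 and the phosphatase subunit gene Ppp1r15a were higher by 0.26, 0.30, 0.34, 0.29 and 0.34, and Farsb and Mrpl55 differed by -0.30 and -0.35, none past limma. No member is in both tables, so no member has values side by side.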

How the data were processed

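The 16 messenger RNA samples were used. The 20 chromatin and 12 Sync-TRAP samples were not analysed here beyond looking for members in the Sync-TRAP tables. The authors' deposited tables hold log2 CPM per library and, per the file headers, log2 fold changes, p-values and adjusted p-values of a likelihood ratio test. Per the submitters' processing notes, the tools include Bowtie and edgeR and the build is mm9. Versions, counting and filters: not given in the sources used here. Repeated lines (49 and 5) were removed, leaving 5508 and 908 features. The number of features tested, 27100 and 26900, was worked out from each adjusted p, its rank and its p. Taking the shared lowest value of a library as 0 reads, low values (at most 20 reads) fell on whole reads to a tolerance of 0.1, which gave depths and read counts. CPM sums use these values, and the SD given with a sum is over the 4 libraries of a group. Each SE comes from limma and rests on the spread between libraries.

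Differences come from limma 3.58.1 (R 4.3.3) on every listed feature, as deposited, and p-values were adjusted by Benjamini-Hochberg for every feature tested. The variance prior rests on called genes alone. Count models were not run, since the values are log2 and not counts. The fit was tested on simulated data. Members and lists were chosen with earlier results of these data known. Values per library are given for the 8 largest and 8 smallest differences, for both rotarod members and for paralogs named with an l, and up to 4 genes per list are named; other members are described by role. Some members count in totals and sums but are not reported here by name. Of 48 members all matched the gene name table, 47 a RefSeq protein-coding symbol and 36 a RefSeq start region. Same-numbered cKO and WT libraries are not stated to be paired.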

Additional observations from a re-analysis of the deposited data

Results flagged for a closer look

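Among 96 groups of 4 libraries looked at, 2 held a library far from the other 3, where chance gives about 1 in 20. Eif5a2 was at 5.79 log2 CPM in WT library 1, against 5.41 to 5.47 in the other WT libraries. Eif4e3 was at 3.67 in WT library 2, against 4.02 to 4.07 in the other WT libraries.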

How the results depend on the processing

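No member changed direction under any alternative that was run. Members were chosen as called on these same values, so this is no separate check. Of all 5508 features listed for cKO, 2990 were higher over all libraries. The number was 2986 within libraries 1 and 2, 2987 within libraries 3 and 4, and 2991 without WT library 1. Of the 43 members called higher in cKO in the authors' deposited table, 27 had an adjusted p under 0.01 and 27 lay at or above the median abundance. Limma passed 20 higher and 2 lower members, and with adjustment over the table alone 39 were higher. With features at or above the median abundance alone it passed 12 and 1. That fit leaves out the members below the median. Of the members in it, 28 kept their outcome and 1 newly passed, so the lower count shows no weakening. Limma was also run on parts of the libraries. Within libraries 1 and 2 alone it passed 0 and 0, and within libraries 3 and 4 alone 8 and 1. With 1 library left out the counts were 8 to 25 higher and 1 to 2 lower (9, 10 and 12 higher without cKO libraries 2, 3 and 4, 10 and 8 without WT libraries 3 and 4), and 9 of 46 members passed in every such fit. With the replicate number as a block 9 higher and 1 lower passed. Same-numbered libraries correlated at 0.0983, 0.160, 0.131 and 0.0846 in their deviations from the group mean. Libraries 1, 2 and 3 of cKO correlated best with the same-numbered WT library, and cKO library 4 with WT library 3 (0.184). Between genotypes, correlations were 0.0305 to 0.184 among libraries 1 and 2 and among libraries 3 and 4. From libraries 1 and 2 to libraries 3 and 4 they were -0.163 to 0.0312. No label states pairing, so the block was kept as an alternative. After training, 1 of 2 members, Eif4ebp2, lay at or above the median abundance, and limma passed 0 there. Rpl10 lay below the median and was not in that fit. Limma passed 2 with adjustment over the table alone, and 0 to 0 with 1 library left out. No paired analysis was possible for rotarod because its columns carry no title numbers. Other scalings could not be tried, since genes that were not called have no values.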
